A study of Mus musculus with 8 samples.

Results

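Collagens are the triple-helical proteins that make up most of the fibrous scaffold around muscle fibers, and 36 of the 27041 genes in the count table were collagen genes with at least 50 reads in sum. They were taken by symbol from 43 collagen rows, of which 7 had fewer reads (Col25a1, Col2a1, Col4a6, Col6a4, Col6a5, Col8a2 and Col9a3). Col9a2, at 54 reads in sum, lay just inside the limit, and Col4a6, at 49 reads, just outside it. The 36 genes comprised 10 fibrillar, 7 basement membrane, 5 network, 7 fibril-associated (FACIT), 2 junction and 5 other collagens.

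Fibrillar collagens (types I, III, V and XI among them) align side by side into the tension-bearing cables of tendon and of the muscle's connective tissue sheaths. Type IV collagen forms the sheet-like basement membrane wrapped around each fiber and capillary, and type VI forms beaded filaments that link that sheet to the fibrils. FACITs decorate fibril surfaces, whereas the junction collagens sit where a muscle fiber meets tendon or nerve. In muscle most fibrillar collagen is made by fibroblasts, not by the muscle fibers themselves.

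Total RNA of skeletal muscle from 9-week-old C57BL/6J male mice was sequenced in 2 groups. Ctrl mice carried the floxed LSD1 L2/L2 alleles, with loxP sites around exon 1 of Kdm1a (the gene of the histone demethylase LSD1), and no Cre. LSD1skm-/- mice carried the same alleles with the HSA-Cre transgene, which is active in myofibers and leaves the gene intact in fibroblasts, endothelium and the other cells of the tissue. Of 8 labelled libraries, 4 Ctrl and 2 LSD1skm-/- libraries had counts, and LSD1skm-/- replicates 3 and 4 were not analysed here.

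Each library held between 30654828 and 41278769 counts. Myofiber genes dominated, as the tissue label says: Acta1, skeletal muscle actin, lay between 31090 and 36530 CPM (counts per 1000000, with library sizes scaled by the trimmed mean of M-values) in all 6 libraries. Kdm1a stood at 22.9, 21.9 and 28 CPM in Ctrl replicates 1 to 3, at 2.95 and 3.47 CPM in the LSD1skm-/- libraries, and at 3.65 CPM in the library labelled Ctrl replicate 4. Its log2 fold change was -2.57 ± 0.74 (SE) with all libraries (edgeR adjusted p = 0.557) and -2.91 ± 0.17 without that library (edgeR adjusted p = 0.000579). The targeted gene thus went against the label of that library, and comparisons of the 2 groups are given both with it and without it. The labels do not tie libraries to separate mice, so p-values measure only the spread between these samples. An exact permutation test of 4 against 2 libraries cannot go below p = 0.067, nor one of 3 against 2 below 0.1, so p-values come from edgeR's quasi-likelihood test, which shares the spread among genes and is adjusted by Benjamini-Hochberg over 11364 genes.

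With all 6 libraries, no collagen gene passed an adjusted p of 0.05 in the comparison of LSD1skm-/- with Ctrl, as for all genes tested (0% called). At an unadjusted p under 0.05, 1 of 28 tested collagens was higher, where 5.02% of all genes were, and 2 were lower, where 3.88% were. Without the library labelled Ctrl replicate 4, 8 of the 28 rose at an adjusted p under 0.05, against 4.36% of all genes, and 0 fell, against 1.02%. The 8 were the fibrillar Col3a1, Col5a1, Col5a2, Col5a3 and Col11a2, the basement membrane Col18a1, and the network Col6a1 and Col6a2. Leaving out a second Ctrl library lowered the 8 to 2 without Ctrl replicate 1, 6 without Ctrl replicate 2 and 4 without Ctrl replicate 3. All genes called fell too, from 612 to 321, 480 and 504 of 11364 in the same order. Fits that also left out an LSD1skm-/- library keep 1 library of that group and are not counted here. With only the library labelled Ctrl replicate 4 left out, 15 collagens were higher at an unadjusted p under 0.05 (12.5% of all genes) and 2 were lower (7.72%).

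The median log2 fold change of the 28 collagens was 0.24 with all libraries and 0.49 without that library, whereas the median of all genes stayed at -0.01 in both. By class, the medians with all libraries were 0.23 for 8 fibrillar, 0.21 for 7 basement membrane, 0.36 for 5 network and 0.33 for 4 FACIT genes. Without the library labelled Ctrl replicate 4 they were 0.56, 0.44, 0.59 and 0.40 in the same order. Col22a1, the single junction collagen tested, lay on the other side of zero at -0.40 and -0.46. Differences between classes are a description and were not tested. In bulk tissue, fewer or more cells of a type and less or more RNA per cell cannot be told apart.

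The library labelled Ctrl replicate 4 was itself the richest in collagen reads. Collagen genes took 0.0586%, 0.0646% and 0.0664% of the counts in Ctrl replicates 1 to 3, 0.127% in that library, and 0.0890% and 0.0968% in the LSD1skm-/- libraries. It had the highest value of the 6 libraries for 19 of 28 collagens, against 18.9% of all genes, and lay above Ctrl replicates 1 to 3 for 23 of 28, against 34.3%. The median ratio of its CPM to the mean of Ctrl replicates 1 to 3 was 1.73 over the collagens, with a range from 0.532 for Col9a1 to 4.98 for Col11a2. Both LSD1skm-/- libraries lay above Ctrl replicates 1 to 3 for 18 of 28 collagens (20.3% of all genes), but above all 4 Ctrl libraries for 1, Col14a1 (9.83%).

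**Figure D1:**
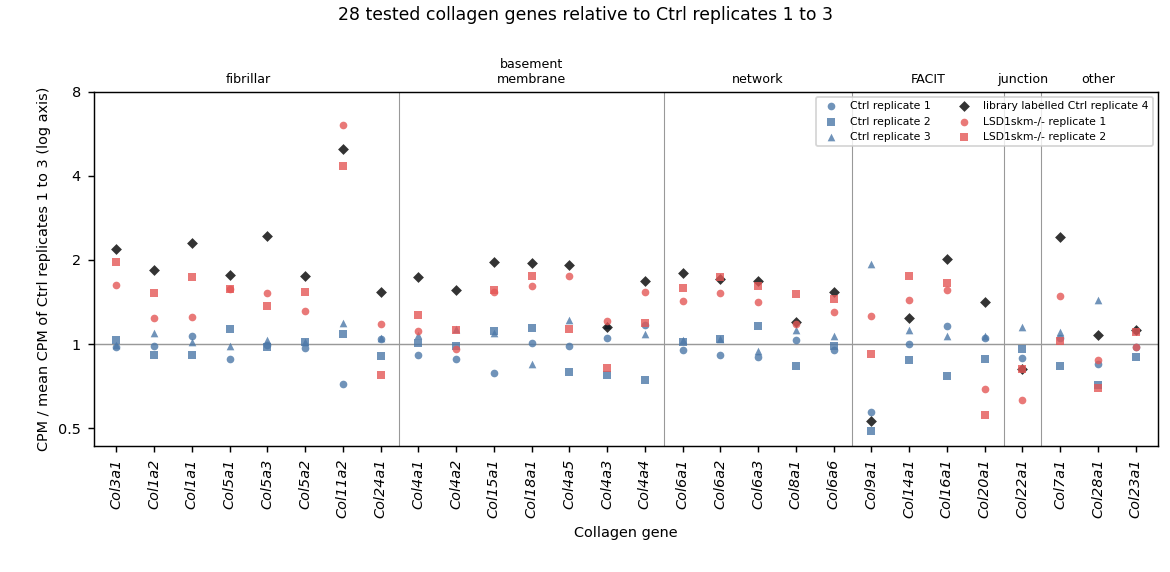
CPM of 28 collagen genes in each library divided by the mean CPM of Ctrl replicates 1 to 3 (vertical log axis), grouped by class. Black diamonds mark the library labelled Ctrl replicate 4, the highest of 6 for 19 genes (18.9% of all genes tested). Red points mark the LSD1skm-/- libraries, which lie above the blue points of Ctrl replicates 1 to 3 for 18 genes (20.3% of all genes tested).

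Levels per kb of the longest coding transcript set the collagens of the tissue in order. Col3a1 was highest at a mean of 27.3 CPM per kb over the 6 libraries, followed by Col4a1 at 20.5, Col1a2 at 15.5, Col4a2 at 13.7, Col6a1 at 10.1, Col1a1 at 10.0 and Col6a2 at 9.86. Col6a1, Col1a1 and Col6a2 were neighbours within the spread of single libraries, which ran from 6.62 to 16.7 CPM per kb for Col1a1 alone. Col3a1 and Col4a1 were close in Ctrl replicates 1 to 3 (18.2, 19.2 and 18.4 against 15.7, 17.3 and 18.6 CPM per kb), and they exchanged ranks when the length of all merged exons was used instead. On that length Col1a2 moved from rank 3 to rank 6 (6.66 CPM per kb) and Col6a2 stood at 5.51 CPM per kb. Types I, III, IV and VI thus headed the list, and Col15a1 came next at 5.15 CPM per kb.

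**Figure D2:**
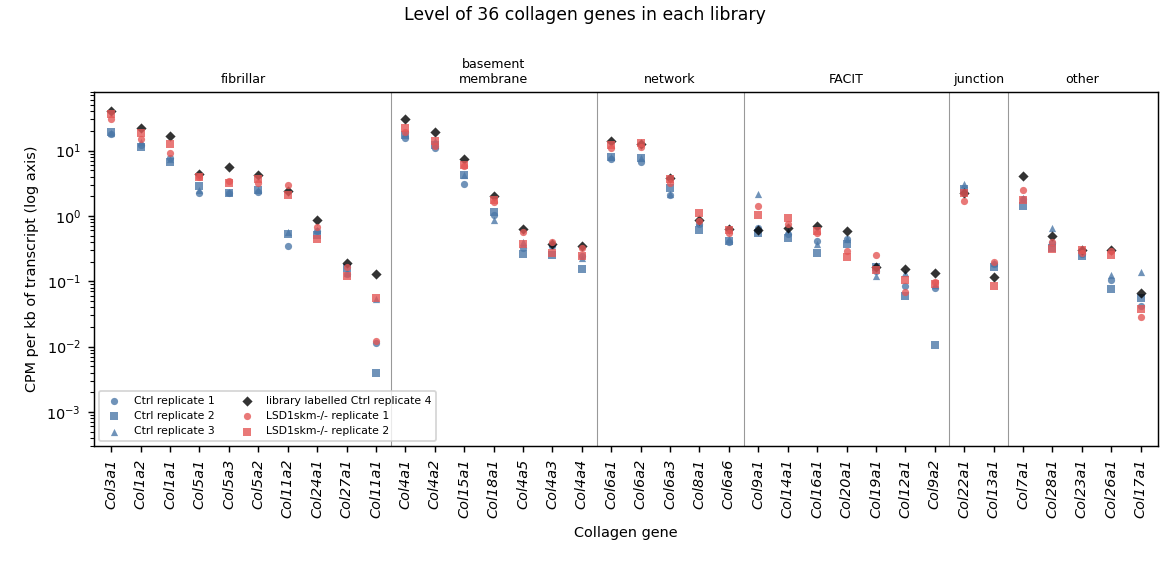
Level of each of the 36 collagen genes in each of 6 libraries, in CPM per kb of transcript on a log axis, grouped by class and ordered by mean within it. Col3a1, Col4a1 and Col1a2 lead with means of 27.3, 20.5 and 15.5 CPM per kb.

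To show the promoter letters of genes that moved together, the 150 bases before the RefSeq start (GRCm38.p6) are given for Col11a2, Col3a1, Col5a1 and Col6a2, which rose without the library labelled Ctrl replicate 4, and for Col20a1, which was lower. Capitals mark matches, on either strand, to TATAAA (the TATA box), GGGCGG (the GC box bound by Sp1-type factors), CCAAT, or TGCGCA, which is part of the NRF1 recognition sequence.
Col11a2, chr17:34038988-34039137, plus strand: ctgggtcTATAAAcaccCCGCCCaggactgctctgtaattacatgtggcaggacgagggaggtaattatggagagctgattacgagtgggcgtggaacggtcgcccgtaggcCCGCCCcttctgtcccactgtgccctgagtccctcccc
Col3a1, chr1:45311388-45311537, plus strand: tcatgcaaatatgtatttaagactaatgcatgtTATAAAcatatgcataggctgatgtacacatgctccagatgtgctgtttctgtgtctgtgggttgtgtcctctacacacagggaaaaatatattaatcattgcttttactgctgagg
Col5a1, chr2:27886275-27886424, plus strand: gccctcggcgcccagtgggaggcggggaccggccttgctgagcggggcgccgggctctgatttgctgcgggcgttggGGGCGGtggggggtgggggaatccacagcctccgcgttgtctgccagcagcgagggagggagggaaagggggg
Col6a2, chr10:76623631-76623780, minus strand: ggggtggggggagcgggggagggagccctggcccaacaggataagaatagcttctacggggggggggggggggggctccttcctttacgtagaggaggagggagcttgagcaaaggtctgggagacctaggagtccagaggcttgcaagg
Col20a1, chr2:180986385-180986534, plus strand: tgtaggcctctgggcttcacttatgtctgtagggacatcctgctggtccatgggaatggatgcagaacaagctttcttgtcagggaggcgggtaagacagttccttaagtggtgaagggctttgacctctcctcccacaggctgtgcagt
Col11a2 held 1 TATA box and 2 GC boxes, Col3a1 a TATA box and Col5a1 a GC box, and none of the 4 motifs was found in the stretches of Col6a2 and Col20a1. The stretch printed is a part of each window of 300 bases. Col6a2 has more than 1 RefSeq start, and its windows held 3 and 1 GC boxes, while that of Col5a1 held 2. Over whole RefSeq windows of 300 bases, available for 29 of the 36 genes, the GC box was in 18 of 32 collagen windows and in 35.7% of 32851 windows of all genes. The CCAAT box was in 11 of the 32 (37.4% of all), the TATA box in 4 (13.6%) and TGCGCA in 1 (7.8%). A match describes the letters and is not a site of binding.

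Among the fibrillar collagens, 7 of 8 tested genes lay higher in both LSD1skm-/- libraries than in Ctrl replicates 1 to 3 (20.3% of all genes). In the library labelled Ctrl replicate 4, 7 of 8 were highest (18.9% of all genes). Type I collagen is a trimer of Col1a1 and Col1a2 chains and the main load-bearing fibril. Col1a1 stood at 46.1, 39.3 and 44.0 CPM in Ctrl replicates 1 to 3, 99.2 CPM in the library labelled Ctrl replicate 4, and 53.8 and 74.7 CPM in the LSD1skm-/- libraries. Col1a2 followed the same order at 64.2, 59.8, 71.7, 120.2, 80.8 and 99.6 CPM. For both genes the LSD1skm-/- libraries lay between Ctrl replicates 1 to 3 and the fourth Ctrl library. Log2 fold changes were 0.17 ± 0.37 (SE) for Col1a1 and 0.19 ± 0.28 for Col1a2 with all libraries (edgeR adjusted p = 0.891 and 0.831). Without that library they were 0.58 ± 0.15 and 0.47 ± 0.13, which missed the threshold (edgeR adjusted p = 0.0811 and 0.0915).

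Col3a1, the homotrimeric type III collagen of fine reticular fibers, was at 101.4, 107.1 and 102.6 CPM in Ctrl replicates 1 to 3 and 226 CPM in the library labelled Ctrl replicate 4. The LSD1skm-/- libraries held 169 and 204 CPM. Ctrl replicates 1 to 3 were nearly level and every other library was well above them, so that the groups overlapped through 1 Ctrl library. The log2 fold change was 0.47 ± 0.34 with all libraries (edgeR adjusted p = 0.658) and 0.85 ± 0.11 without that library (edgeR adjusted p = 0.00651). The gene lies at chr1:45311538-45349706 of GRCm38 on the plus strand, next to Col5a2 at chr1:45374321-45503282 on the minus strand.

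Type V collagen, whose chains start fibrils and limit their width, rose in its 3 chains without the library labelled Ctrl replicate 4. Col5a1 was at 18.8, 24.0 and 20.9 CPM in Ctrl replicates 1 to 3, at 37.4 in the fourth, and at 33.4 and 33.5 CPM in the LSD1skm-/- libraries. Col5a2 ran 15.5, 16.3, 16.2 and 28 CPM over the Ctrl libraries against 21.1 and 24.6 CPM. Col5a3 ran 13.8, 13.7, 14.4 and 34.0 CPM against 21.2 and 19.2 CPM. In each case the fourth Ctrl library was highest and the LSD1skm-/- libraries stood apart from Ctrl replicates 1 to 3. The log2 fold changes without that library were 0.66 ± 0.12 for Col5a1, 0.52 ± 0.11 for Col5a2 and 0.53 ± 0.11 for Col5a3 (edgeR adjusted p = 0.0264, 0.0446 and 0.0361). With all libraries they were 0.40 ± 0.26, 0.26 ± 0.25 and 0.09 ± 0.38 (edgeR adjusted p = 0.632, 0.735 and 0.953).

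Col11a2 showed the largest fold change of the 28 collagens in both fits. It encodes a chain of type XI collagen, a minor fibrillar collagen best known from cartilage and the inner ear. Its CPM were 2.11, 3.17 and 3.47 in Ctrl replicates 1 to 3, 14.5 in the library labelled Ctrl replicate 4, and 17.7 and 12.7 in the LSD1skm-/- libraries. The 3 libraries with low Kdm1a thus held the 3 highest Col11a2 values, as they did for Col3a1, Col5a1 and Col6a1 among others. The log2 fold change was 1.37 ± 0.68 with all libraries (edgeR adjusted p = 0.570) and 2.38 ± 0.24 without the fourth Ctrl library (edgeR adjusted p = 0.0030), a 5.22-fold difference. The gene spans chr17:34039437-34066685 on the plus strand, overlaps no other annotated gene and shares no 50-base stretch with other transcripts.

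Of 4 cartilage and bone markers considered, Sox9 alone had enough reads to be tested. Sox9, which drives cartilage genes, was at 4.04, 1.75, 3.27 and 3.05 CPM in the Ctrl libraries and 2.45 and 3.69 CPM in LSD1skm-/-, and Acan (aggrecan) had between 0 and 4 reads a library. Col11a1, the partner chain of Col11a2, had 3, 1, 14 and 44 reads in the Ctrl libraries and 3 and 16 in LSD1skm-/-, too few for the filter and most in the fourth Ctrl library. The part of cartilage in the Col11a2 result was not tested. Col24a1, a minor fibrillar collagen of bone and cornea, was at 4.27, 3.69, 4.28 and 6.24 CPM in Ctrl and 4.81 and 3.16 CPM. Its log2 fold changes of -0.22 ± 0.27 and -0.04 ± 0.22 were within their errors.

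The basement membrane collagens comprise type IV chains and the 2 multiplexins. Col4a1, the most abundant chain of the sheet around fibers and capillaries, was at 104, 115, 123 and 199 CPM in Ctrl and 127 and 145 CPM in LSD1skm-/-. Col4a2, its partner in the trimer, was at 70.6, 79.0, 90.6 and 125 CPM against 76.6 and 89.7 CPM. The fourth Ctrl library was highest for both. In LSD1skm-/-, Col4a1 lay above Ctrl replicates 1 to 3 and Col4a2 inside their range. Log2 fold changes were 0.01 ± 0.25 and -0.14 ± 0.22 with all libraries, and 0.26 ± 0.11 and 0.06 ± 0.14 without the fourth (edgeR adjusted p = 0.264 and 0.853). The 2 genes lie head to head on chromosome 8 and overlap at their first bases.

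Col18a1 and Col15a1, the multiplexins, carry sugar chains and bridge the basement membrane to the matrix outside it, and Col18a1 is the source of endostatin. Col18a1 was at 5.74, 6.51, 4.83 and 11.1 CPM in Ctrl and 9.18 and 9.94 CPM in LSD1skm-/-. Col15a1 was at 15.7, 22, 21.8 and 38.9 CPM in Ctrl and 30.4 and 31.0 CPM in LSD1skm-/-. Both were above Ctrl replicates 1 to 3 and below the fourth Ctrl library in each LSD1skm-/- library. Without the fourth library Col18a1 rose by a log2 fold change of 0.75 ± 0.16 (edgeR adjusted p = 0.0404), while Col15a1, at 0.63 ± 0.16, missed the threshold (edgeR adjusted p = 0.0688). With all libraries the values were 0.43 ± 0.31 and 0.32 ± 0.31 (edgeR adjusted p = 0.659 and 0.747). Col18a1 overlaps Slc19a1 on the opposite strand, and the sources do not say whether counting used strand. The rarer chains Col4a3, Col4a4 and Col4a5, known from kidney and the neuromuscular junction, lay between 1.57 and 4.10 CPM and none passed an unadjusted p of 0.05. Their log2 fold changes were -0.03 ± 0.26, 0.21 ± 0.32 and 0.22 ± 0.37 with all libraries. Without the fourth they were 0.02 ± 0.26, 0.44 ± 0.25 and 0.52 ± 0.27.

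All 5 network collagens tested lay above Ctrl replicates 1 to 3 in both LSD1skm-/- libraries, where 20.3% of all genes did. Type VI collagen is assembled from Col6a1, Col6a2 and another chain, most often Col6a3, and mutations in any of these cause muscular dystrophy. Col6a1 was at 30.1, 32.2, 32.8 and 57.0 CPM in Ctrl and 45.1 and 50.5 CPM in LSD1skm-/-. Col6a2 was at 31.6, 35.9, 36.1 and 59.1 CPM against 52.5 and 60.0 CPM. Col6a3 was at 20.9, 26.9, 22 and 39.0 CPM against 32.8 and 37.4 CPM. In each chain Ctrl replicates 1 to 3 were the lowest libraries, and the top place was that of the fourth Ctrl library for Col6a1 and Col6a3 and of LSD1skm-/- replicate 2 for Col6a2.

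Without that library Col6a1 rose by 0.59 ± 0.10 and Col6a2 by 0.71 ± 0.11 on the log2 scale (edgeR adjusted p = 0.0199 and 0.0147), and Col6a3, at 0.60 ± 0.14, fell just outside the threshold (edgeR adjusted p = 0.052). With all libraries the fold changes were 0.33 ± 0.26, 0.47 ± 0.24 and 0.37 ± 0.24 (edgeR adjusted p = 0.683, 0.571 and 0.644). Col6a6, an alternative to Col6a3 in the trimer, was at 3.46, 3.56, 3.88 and 5.56 CPM in Ctrl and 4.75 and 5.28 CPM in LSD1skm-/-, with 0.47 ± 0.16 without the fourth library (edgeR unadjusted p = 0.0212, adjusted p = 0.161). Col8a1, a short-chain collagen of blood vessels, was at 3.81, 3.07, 4.14 and 4.42 CPM against 4.34 and 5.57 CPM, and passed neither threshold.

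Col22a1, a collagen that muscle fibers deposit at the myotendinous junction, went the other way. It was at 21.2, 22.9 and 27.4 CPM in Ctrl replicates 1 to 3, 19.4 CPM in the library labelled Ctrl replicate 4, and 15.1 and 19.4 CPM in LSD1skm-/-. The fourth Ctrl library, highest for most other collagens, was here the lowest of the Ctrl libraries and level with LSD1skm-/- replicate 2. The log2 fold change was -0.40 ± 0.17 with all libraries (edgeR unadjusted p = 0.050, adjusted p = 0.557) and -0.46 ± 0.16 without the fourth (edgeR unadjusted p = 0.0222, adjusted p = 0.164). Col13a1, a transmembrane collagen of the neuromuscular junction, had 10 to 21 reads in each library, too few for the filter.

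Of the 4 FACITs tested, 3 had fold changes above zero and 1 below it in both fits, and none passed adjustment. Col14a1, which coats fibrils and binds decorin, was at 3.38, 2.95, 3.79 and 4.17 CPM in Ctrl and 4.84 and 5.91 CPM in LSD1skm-/-, with no overlap of the groups. Its log2 fold change was 0.59 ± 0.19 with all libraries (edgeR unadjusted p = 0.0172, adjusted p = 0.557) and 0.68 ± 0.18 without the fourth Ctrl library (adjusted p = 0.0905). Col16a1, which links fibrils to microfibrils, was at 2.14, 1.41, 1.97 and 3.69 CPM in Ctrl against 2.86 and 3.05 CPM, with 0.35 ± 0.36 and, without that library, 0.68 ± 0.23 (edgeR unadjusted p = 0.0187, adjusted p = 0.148).

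Col20a1, a little studied FACIT, was lower in both LSD1skm-/- libraries, at 1.45 and 1.17 CPM, than in any Ctrl library, at 2.19, 1.84, 2.23 and 2.96 CPM. The log2 fold change was -0.83 ± 0.27 with all libraries (edgeR unadjusted p = 0.0166, adjusted p = 0.557) and -0.68 ± 0.22 without the fourth (edgeR unadjusted p = 0.018, adjusted p = 0.145). The fourth Ctrl library was the highest of all, as it was for 19 of the 28 tested collagens, Col20a1 included (18.9% of all genes). Col9a1, a chain of the cartilage FACIT type IX, was decided by 1 library, with 2.48, 2.12, 8.39 and 2.30 CPM in Ctrl and 5.44 and 4.0 CPM in LSD1skm-/-. Its log2 fold change was 0.30 ± 0.57 with all libraries (edgeR unadjusted p = 0.609) and 1.03 without Ctrl replicate 3 (edgeR unadjusted p = 0.00254, adjusted p = 0.701).

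Among the remaining collagens, Col7a1, which forms the anchoring fibrils below epithelia, was at 16.6, 13.2, 17.4 and 38.1 CPM in Ctrl and 23.4 and 16.2 CPM in LSD1skm-/-. The fourth Ctrl library stood far above the others, and the LSD1skm-/- libraries overlapped Ctrl replicates 1 to 3. The log2 fold change was -0.11 ± 0.41 with that library and 0.33 ± 0.19 without it. Col28a1, a beaded filament collagen of peripheral nerve, was at 1.62, 1.35, 2.72 and 2.05 CPM against 1.67 and 1.33 CPM, and Col23a1, a transmembrane collagen, at 1.5, 1.38, 1.74 and 1.73 CPM against 1.51 and 1.70 CPM. Their log2 fold changes with all libraries were -0.37 ± 0.32 and 0.01 ± 0.23 (edgeR unadjusted p = 0.283 and 0.955), and -0.35 ± 0.34 and 0.06 ± 0.22 without the fourth Ctrl library.

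The 8 members below the mean count of 50 were Col9a2, Col11a1, Col12a1, Col13a1, Col17a1, Col19a1, Col26a1 and Col27a1. When all rows with at least 50 reads in sum were fitted, which took in all 36 members, Col26a1 was the one of these 8 with an unadjusted p under 0.05. It had 10, 7 and 12 reads in Ctrl replicates 1 to 3, 37 in the library labelled Ctrl replicate 4, and 26 in each LSD1skm-/- library. Like Col11a2, Col3a1, Col5a1 and Col6a1 among others, it was higher in the 3 libraries with low Kdm1a than in the other 3. The share of all genes with this order was not counted. Its log2 fold change was 0.80 ± 0.54 with all libraries (edgeR unadjusted p = 0.178) and 1.39 ± 0.37 without that one (edgeR unadjusted p = 0.00613, adjusted p = 0.0883). Col17a1, an epithelial transmembrane collagen, had 8, 10, 27 and 16 reads in Ctrl and 5 and 8 in LSD1skm-/- (edgeR unadjusted p = 0.0938).

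Ratios between collagens of 1 library do not depend on how libraries are scaled. Between chains of the same type, the ratio per kb of Col1a1 to Col1a2 ran from 0.554 to 0.744 over the 6 libraries and that of Col5a3 to Col5a1 from 0.784 to 1.25. Col6a1 to Col6a2 was 1.02 to 1.10 in the 4 Ctrl libraries and 0.974 and 0.954 in LSD1skm-/-, and Col4a1 to Col4a2 was 1.32 to 1.55 in Ctrl and 1.62 and 1.57 in LSD1skm-/-, so that both separated the groups by a small margin. Col3a1 to Col4a1, fibrillar to basement membrane, was 1.16, 1.11, 0.991 and 1.36 in Ctrl and 1.58 and 1.67 in LSD1skm-/-. Col6a1 to Col4a1 was 0.468, 0.454, 0.430 and 0.463 in Ctrl and 0.572 and 0.562 in LSD1skm-/-. Col4a1 to Col1a1, of the same classes as Col3a1 and Col4a1, overlapped between the groups. It was 2.02, 2.62, 2.5 and 1.79 in Ctrl and 2.12 and 1.74 in LSD1skm-/-. By Col3a1 to Col4a1 and by Col6a1 to Col4a1 the LSD1skm-/- libraries stood above all 4 Ctrl libraries, the fourth included. How often other pairs of genes separate the groups was not tested. Col11a2 to Col5a1, by contrast, put the fourth Ctrl library, at 0.540, with LSD1skm-/- (0.738 and 0.526) and apart from Ctrl replicates 1 to 3 (0.156, 0.184 and 0.231). Col22a1 to Col4a1 did so too, at 0.0735 against 0.0890 and 0.101 in LSD1skm-/- and 0.153, 0.150 and 0.167 in Ctrl replicates 1 to 3.

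**Figure D3:**
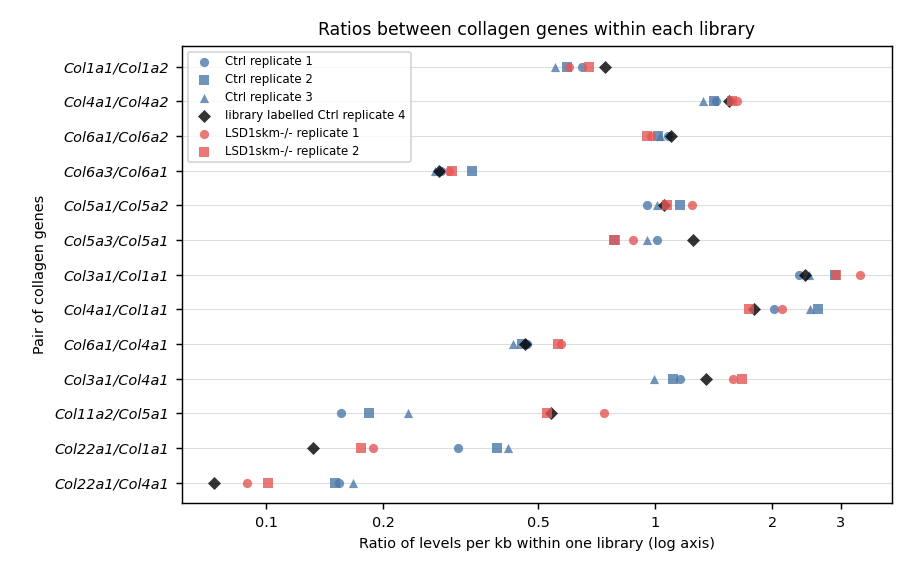
Ratio of the levels per kb of pairs of collagen genes within each of 6 libraries (horizontal log axis). Col3a1/Col4a1 and Col6a1/Col4a1 were higher in both LSD1skm-/- libraries than in all 4 Ctrl libraries, while Col11a2/Col5a1 and Col22a1/Col4a1 place the library labelled Ctrl replicate 4 (black diamond) beside LSD1skm-/-. Col4a1/Col1a1 overlapped between the groups.

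Genes that fold, trim and cross-link collagen were examined next, with 0 genes of any list passing an adjusted p of 0.05 when all libraries were used. Counts at an unadjusted p under 0.05 are read against 5.02% of all genes higher and 3.88% lower with all libraries, and 12.5% and 7.72% when the fourth Ctrl library was left out. Of 22 folding and hydroxylation genes, 2 were higher and 0 lower with all libraries, and 6 and 0 without the fourth, with list medians of 0.12 and 0.22. P3h4, by name a member of the prolyl 3-hydroxylase family, and Crtap, of the prolyl 3-hydroxylation machinery, rose after adjustment without the fourth library and not with it.

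P3h4 was at 4.19, 3.47, 3.93 and 8.02 CPM in Ctrl and 8.08 and 8.54 CPM in LSD1skm-/-. Its log2 fold change was 0.75 ± 0.32 with all libraries (edgeR unadjusted p = 0.0497, adjusted p = 0.557) and 1.11 ± 0.15 without the fourth (edgeR adjusted p = 0.00818). Crtap was at 3.06, 3.10, 2.92 and 6.84 CPM against 5.22 and 6.63 CPM, with 0.57 ± 0.37 (edgeR unadjusted p = 0.163, adjusted p = 0.640) and 0.97 ± 0.17 (edgeR adjusted p = 0.0212) in the same order. In both genes the fourth Ctrl library sat beside LSD1skm-/-.

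Of 8 tested genes of procollagen processing and cross-linking, 1 was higher and 0 lower at that unadjusted threshold with all libraries and 6 and 0 without the fourth, and the list medians were 0.37 and 0.57. Loxl1, a lysyl oxidase that cross-links elastin and collagen, was at 6.55, 8.36, 8.36 and 17.7 CPM in Ctrl and 17.9 and 18 CPM in LSD1skm-/- (1.21 ± 0.14 without the fourth library, edgeR adjusted p = 0.00444). Adamts2, the protease that removes the amino propeptide of fibrillar procollagens, was at 9.26, 8.48, 12.6 and 14.8 CPM against 18.2 and 18.6 CPM (0.87 ± 0.17, edgeR adjusted p = 0.0351). Loxl1 in the fourth Ctrl library was again close to LSD1skm-/-, and Adamts2 lay between. With all libraries the 2 genes had log2 fold changes of 0.80 ± 0.36 and 0.70 ± 0.22 (edgeR unadjusted p = 0.0566 and 0.0133).

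Among 15 fibril-associated proteoglycans and glycoproteins, 5 were higher with all libraries and 7 without the fourth, 0 were lower in either, and the medians were 0.27 and 0.31. Lum, the keratan sulfate proteoglycan lumican, was at 9.73, 12.2, 9.78 and 15.4 CPM in Ctrl and 16.3 and 20.6 CPM in LSD1skm-/-, with no overlap of the groups. Lum had a log2 fold change of 0.65 ± 0.21 with all libraries (edgeR unadjusted p = 0.0149, adjusted p = 0.557) and 0.81 ± 0.16 without the fourth (edgeR adjusted p = 0.0296).

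Of 10 degradation genes, 1 was higher and 2 were lower with all libraries, and 3 and 2 without the fourth. Mmp2, a gelatinase, was at 19.5, 19.8, 19.5 and 28.1 CPM in Ctrl and 25.6 and 26.5 CPM in LSD1skm-/-. Mmp2 had a log2 fold change of 0.26 ± 0.17 with all libraries (edgeR unadjusted p = 0.169, adjusted p = 0.644) and 0.41 ± 0.10 without the fourth (edgeR adjusted p = 0.0554). Of 7 collagen receptors, 1 passed an unadjusted p of 0.05 with all libraries and 0 without the fourth. It was Itga11, the integrin chain of fibroblasts that binds fibrillar collagen, at 2.63, 2.80, 2.26 and 2.35 CPM against 3.55 and 3.26 CPM (edgeR unadjusted p = 0.0497 and, without the fourth, 0.0592).

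Of 16 genes of TGF-beta signalling, a main inducer of collagen genes, 0 passed in either direction with all libraries, and 1 was higher and 2 were lower without the fourth, shares near those of all genes. The higher one was the ligand Tgfb2, at 15.6, 16.6, 15.1 and 19.1 CPM in Ctrl and 19.5 and 19.9 CPM in LSD1skm-/-. Tgfb2 had a log2 fold change of 0.24 ± 0.12 with all libraries (edgeR unadjusted p = 0.087) and 0.32 ± 0.10 without the fourth (edgeR unadjusted p = 0.0175, adjusted p = 0.143).

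Markers of the cells that make collagen were compared in the same libraries. The 13 fibroblast markers other than Col1a1 and Col3a1 summed to 935 to 1069 CPM over the 4 Ctrl libraries and to 1168 and 1359 CPM in LSD1skm-/-. Gsn and Dcn made up most of each sum, with Gsn at 498 to 621 CPM in Ctrl and 641 and 748 CPM in LSD1skm-/-. Of the 13 markers, 6 were higher at an unadjusted p under 0.05 in each fit (5.02% and 12.5% of all genes). The median log2 fold change of the 13 was 0.31 with all libraries, against 0.23 for the fibrillar collagens, and 0.31 without the fourth, against 0.56. Pdgfra, a receptor that defines muscle fibroblasts, was at 15.5, 15.3, 14.3 and 16.3 CPM in Ctrl and 18.7 and 20.3 CPM in LSD1skm-/-, with log2 fold changes of 0.34 ± 0.11 and, without the fourth library, 0.37 ± 0.11. In the library labelled Ctrl replicate 4, the median fibroblast marker was 0.11 above Ctrl replicates 1 to 3 on the log2 scale and the median fibrillar collagen 1.01 above them. The part of fibroblast number in the collagen result was not tested.

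Tendon markers were sparse, with 3 of 9 tested and Tnmd (tenomodulin) at 0.0922 to 1.32 CPM. Of the 3 tested, 2 were higher and 0 lower at an unadjusted p under 0.05 in each fit (5.02% and 12.5% of all genes were higher). Thbs4 was at 41.2, 37.2, 37.3 and 50.5 CPM in Ctrl and 56.9 and 54.3 CPM in LSD1skm-/-, with log2 fold changes of 0.42 ± 0.14 with all libraries (edgeR unadjusted p = 0.0195) and 0.53 ± 0.10 without the fourth (edgeR adjusted p = 0.0263). Fmod went the other way, at 5.51, 2.52, 8.68 and 11.4 CPM in Ctrl and 4.37 and 4.75 CPM in LSD1skm-/-. Its log2 fold changes were -0.63 ± 0.51 with all libraries and -0.29 ± 0.44 without the fourth. The summed tendon markers, of which Thbs4 made up most, were 45.1 to 75.2 CPM in Ctrl and 70.2 and 71.0 CPM in LSD1skm-/-. The part of tendon tissue in the collagen result was not tested. Of 11 endothelial and mural markers, 3 were lower at an unadjusted p under 0.05 in each fit (3.88% and 7.72% of all genes) and 0 higher, with medians of -0.27 and -0.09. Their sums overlapped between the groups, at 475 to 656 CPM in Ctrl, highest in the fourth, and 498 and 454 CPM in LSD1skm-/-.

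Adipocyte transcripts varied widely between libraries. Adipoq, the adipocyte hormone adiponectin, was at 12.8, 9.68, 0.781 and 19.5 CPM in Ctrl and 0.126 and 0.557 CPM in LSD1skm-/-. Of 6 adipocyte markers tested, 5 were lower at an unadjusted p under 0.05 in each fit (3.88% and 7.72% of all genes), and the median log2 fold change was -3.84 without the fourth library. The summed fibrillar collagens were 267, 268, 279 and 568 CPM in the Ctrl libraries and 404 and 473 CPM in LSD1skm-/-, and the part of fat in the collagen result was not tested. Schwann cell markers ranged from 55.3 to 174 CPM in sum over the Ctrl libraries and were 65.7 and 106 CPM in LSD1skm-/-. Immune markers summed to 16.2 to 39.3 CPM in Ctrl and 23.5 and 37.8 CPM in LSD1skm-/-. Of 9 genes that respond to denervation, 1 was higher with all libraries and 3 without the fourth (5.02% and 12.5% of all genes). Of 11 myofiber genes, 2 were lower in each fit (3.88% and 7.72% of all genes).

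**Figure D4:**
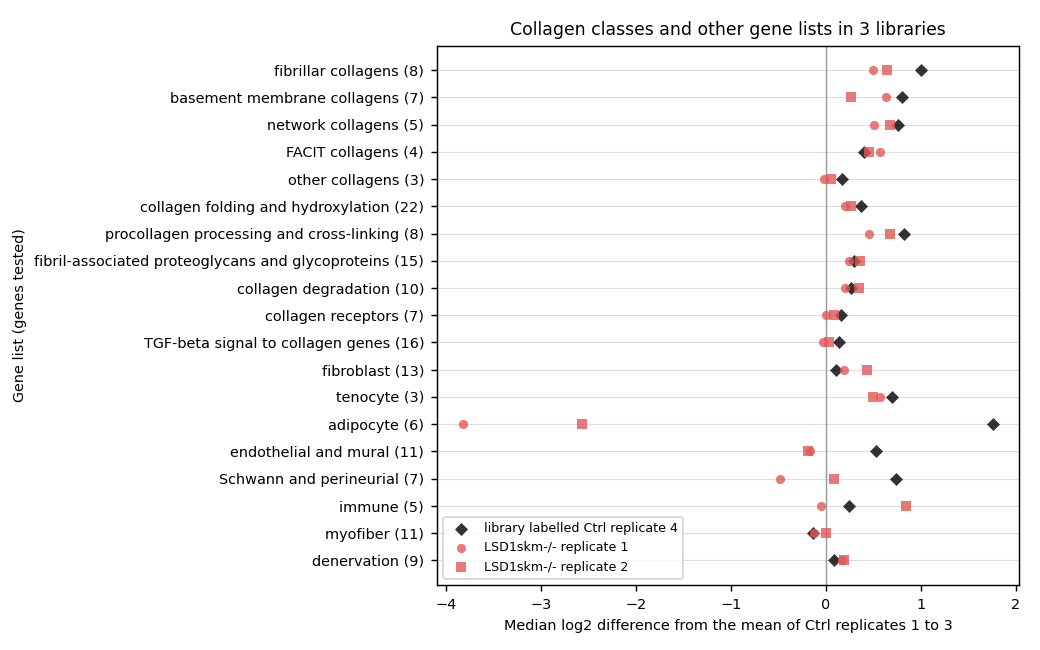
Median log2 difference of each gene list from the mean of Ctrl replicates 1 to 3 (horizontal axis) in the library labelled Ctrl replicate 4 (black diamonds) and the 2 LSD1skm-/- libraries (red), with the number of genes tested in brackets. Fibrillar collagens lie at 1.01 in the former, where fibroblast markers lie at 0.11, and of the lists drawn the adipocyte markers are spread most widely.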

How the data were processed

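RNA was extracted from skeletal muscle with TRIzol and sequenced as single-end reads of 50 bases from a stranded mRNA kit. The authors aligned the reads to mm10, kept uniquely aligned ones and deposited raw counts per gene, with htseq-count and HOMER named in the methods; the aligner and the strand setting of the counting are not given in the sources used here. From these counts, rows with a mean above 50 over the 6 libraries (11364) were tested with edgeR 4.0.16 (R 4.3.3), TMM scaling, a condition term alone and Benjamini-Hochberg adjustment at 0.05. Standard errors were derived from the fold change and the F statistic. DESeq2 1.42.0, other filters and scalings, and each replicate left out were alternatives. Depth was 30654828 to 41278769 counts a library. Pairs of the 6 libraries, within and between groups, differed by far more than sampling noise (chi-square of 32.9 to 127 per degree of freedom). Scripts were tested on simulated data.

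Members were collagen symbols with a summed count of at least 50. Genes named are, per class, the 2 of highest CPM per kb and every member with an unadjusted p under 0.05 with or without the library labelled Ctrl replicate 4, and in each pathway list up to 3 genes passing adjustment or the one of smallest p. Col4a3, Col4a4, Col4a5, Col8a1, Col23a1, Col24a1, the 8 members below the filter, and the marker genes were given in addition. Members and lists were chosen with earlier results of these data known. Coordinates and transcript lengths are from GENCODE vM21 (GRCm38, the same assembly as mm10), and promoters from RefSeq.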

Additional observations from a re-analysis of the deposited data

Results flagged for a closer look

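Among 37 results examined within the 4 Ctrl libraries on the log2 CPM scale, 9 had 1 library set apart from the other 3 by a gap wider than Dixon's critical share of the whole range. Chance gives about 1 in 20 for results not picked from the same data. Many of the 37 were genes named by their p-value, also in the fit without the library labelled Ctrl replicate 4, so that rate need not hold for them. In 7 of them the library labelled Ctrl replicate 4 was the highest. These were Col3a1 (0.93), Col5a2 (0.91), Col5a3 (0.94), Col6a1 (0.87), the mean of the fibrillar collagens (0.89), the prolyl 3-hydroxylation partner Crtap (0.93) and the gelatinase Mmp2 (0.96). Kdm1a (0.88) had the same library as its lowest. Col9a1 (0.89) was set apart by Ctrl replicate 3, at 8.39 CPM against 2.12 to 2.48 CPM in the other Ctrl libraries. The results share libraries and are not independent of each other.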

How the results depend on the processing

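The library labelled Ctrl replicate 4 decided the count of collagens called. Leaving out 1 Ctrl library at a time, or that library and 1 other Ctrl library, gave 0 to 8 collagens at an adjusted p under 0.05 (0 with all libraries). Of the 11364 genes tested, 0 to 612 were called in these fits. At an unadjusted p under 0.05 they gave 2 to 20 collagens (3 with all libraries) and 586 to 2292 genes (1011 with all libraries). Without that library, adjusted and unadjusted counts of collagens were 12 and 17 by DESeq2 (1056 and 2203 of 11364 genes). They were 7 and 18 with all rows of at least 50 reads in sum (659 and 2775 of 14632 genes). They were 8 and 17 with either RLE (603 and 2291 genes) or upper-quartile scaling (615 and 2292 genes). With library sizes alone they were 11 and 19 (721 and 2336 genes). These settings were chosen after seeing the data. With no filter the unadjusted count over all libraries was 7 (2189 of 27041 genes). With the replicate number as a block (replicate block), 5 collagens passed the adjusted and 17 the unadjusted threshold (632 and 1677 of 11364 genes). There the FACIT median was 0.76 and Col9a1 stood at 1.03 (edgeR adjusted p = 0.0187). This fit rests on replicates 1 and 2 of each group. Deviations from the group means in libraries of the same number had correlations of -0.23 and -0.03. The deviations of the 2 LSD1skm-/- libraries mirror each other, so these values cannot settle whether libraries of the same number were paired. Over 22 collagens and 13 settings, 258 of 286 fold changes kept direction and call. Reversed directions were those of Col4a1 with no filter (-0.0028), of Col28a1 (0.0087), Col4a2 (0.15) and Col7a1 (0.40) under the replicate block, and, on leaving out 1 library, of Col4a1, Col4a2, Col5a3, Col7a1 and Col1a1, whose fold changes then ran from -0.10 to 0.26, -0.25 to 0.057, -0.047 to 0.53, -0.41 to 0.33 and -0.088 to 0.58 in that order. Why the block moved these values beyond its use of fewer libraries was not tested. Depth limits the 8 members below a mean count of 50, and 2 LSD1skm-/- libraries limit every comparison.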
